A study of Mus musculus with 24 samples.

Results

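Neuromodulator receptors are the proteins through which neurons and glia sense acetylcholine, dopamine, noradrenaline, serotonin and, for slow signalling, glutamate. The 57 genes described here are all gene symbols in the PAPERCLIP count tables, out of 23871, that begin as serotonin (Htr), dopamine (Drd), muscarinic (Chrm), nicotinic (Chrna to Chrng), adrenergic (Adra1, Adra2, Adrb) or metabotropic glutamate (Grm) receptor names. They comprise 14 serotonin, 5 dopamine, 5 muscarinic, 16 nicotinic, 9 adrenergic and 8 metabotropic glutamate receptor genes. Each of the 57 also matched an Ensembl identifier in the RNA-seq tables. In cTag-PAPERCLIP, Cre recombinase under a cell type promoter switches on a tagged poly(A)-binding protein (Ctag-PABP), and the mRNA crosslinked to it is recovered with anti-GFP antibodies. Cortex carrying Ctag-PABP with Gfap-Cre, Gad2-Cre or Camk2a-Cre gave 2 libraries per line, and whole brain carrying it with Cx3cr1-Cre gave 2 untreated libraries. The same Cx3cr1-Cre line gave 3 libraries labelled PBS and 3 labelled LPS (lipopolysaccharide, a bacterial wall component that activates innate immune cells). RNA-seq was made from CD11b-bead-isolated microglia of adult wild-type B6 mice, 3 libraries after phosphate-buffered saline (PBS) and 3 after LPS at 1 mg/kg injected daily for 4 days, with brains pooled before dissociation. A liver PAPERCLIP library (CL57/B6J, no tag or Cre named) and 3 RNA-seq libraries of Ptbp2-KO cortex at E18.5, which have no wild-type counterpart here, completed the set. No age is labelled for the PAPERCLIP animals, and the dose and schedule are labelled for the RNA-seq animals.

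Most of these receptors cross the membrane 7 times and act through G proteins. By their textbook coupling, 20 of the 57 act through Gi, which lowers cyclic AMP, 11 through Gq, which releases calcium by way of phospholipase C, and 8 through Gs, which raises cyclic AMP. The other 18, the nicotinic subunits and the Htr3 serotonin subunits, form ion channels that open within milliseconds of binding. In cortex, neuromodulators set arousal, attention and plasticity. Astrocytes and microglia carry such receptors too.

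Grm2 and Grm3 encode the group II metabotropic glutamate receptors, close relatives that both couple to Gi, and their counts lay in different cell types. Their promoters are shown because they are the related pair with the clearest contrast. Both sequences are from RefSeq, build GRCm38.p6, 250 bases before to 50 after the annotated start, read 5′ to 3′ on the gene's own strand, which is the minus strand for both. Capitals mark GGGCGG, searched on both strands.
Grm3, chr5:9725303-9725602: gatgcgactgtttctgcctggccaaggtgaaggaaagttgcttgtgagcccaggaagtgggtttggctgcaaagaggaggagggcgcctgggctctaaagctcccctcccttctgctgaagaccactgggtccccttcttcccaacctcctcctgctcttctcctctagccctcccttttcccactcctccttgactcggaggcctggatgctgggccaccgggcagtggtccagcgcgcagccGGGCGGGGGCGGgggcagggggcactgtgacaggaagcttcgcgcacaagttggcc
Grm2, chr9:106656060-106656359: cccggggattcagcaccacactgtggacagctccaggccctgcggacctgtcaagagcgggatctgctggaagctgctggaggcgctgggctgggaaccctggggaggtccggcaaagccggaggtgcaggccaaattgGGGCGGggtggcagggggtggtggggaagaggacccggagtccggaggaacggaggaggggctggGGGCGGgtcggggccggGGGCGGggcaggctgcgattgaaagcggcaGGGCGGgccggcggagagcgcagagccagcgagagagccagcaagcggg
The Grm3 window held 2 GGGCGG and the Grm2 window 4, against at least 1 in 35.7% of all 32851 promoter windows of that table. Neither window held TATAAA, which 13.6% of all windows did. GC content was 63.7% for Grm3 and 72.0% for Grm2. The Grm3 gene spans chromosome 5, 9485236 to 9725352, and Grm2 spans chromosome 9, 106644534 to 106656109. Of the 57 genes, 42 have a window in the table.

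PAPERCLIP depth was 630475 to 2005627 counts in the cortical libraries, 133456 and 154959 in untreated Cx3cr1, 266330 to 337770 after PBS and 679115 to 1041245 after LPS. Isolated microglia had 1250170 to 2133407 counts. Marker genes followed the labels. Astrocyte markers summed to 24376 and 28460 CPM (counts scaled to a common library total) in Gfap and at most 643 CPM elsewhere among untreated libraries. Excitatory markers summed to 5776 and 6277 CPM in Camk2a and at most 488 CPM in the rest, inhibitory markers to 7603 and 8635 CPM in Gad2 and at most 123 CPM in the rest, and microglial markers to 33524 and 39198 CPM in Cx3cr1 and at most 108 CPM in the rest. Gfap libraries also held oligodendrocyte markers (1201 CPM in replicate 1 and 8970 CPM in replicate 2), oligodendrocyte precursor markers (119 and 333 CPM), mural cell markers (144 and 220 CPM) and general neuron markers (1296 and 669 CPM, against 10215 to 12598 CPM in the neuronal lines). In such bulk libraries, fewer cells of a type and less RNA per cell cannot be told apart.

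Over the 8 untreated libraries, 25 receptor genes had at least 20 counts, 20 had 1 to 19 and 12 had none. For the 25, each gene's 4 group means were expressed as shares of their sum. Camk2a held the highest share of 12 genes, Gad2 of 8, Gfap of 3 and Cx3cr1 of 2. A single group held over 50% of the sum for 20 of the 25. Htr3a held 100% in Gad2, Grm3 91.6% in Gfap and Grm2 90.4% in Camk2a. Shares, and the numbers of genes drawn from them, take a group without counts as 0. In untreated Cx3cr1 a count of 0 allows up to 19.4 CPM in replicate 1 and 22.5 CPM in replicate 2. The levels of Htr3a in Gad2 and of Grm2 in Camk2a, given below, are of similar size. The Htr3a and Grm2 shares may therefore be lower.

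**Figure D1:**
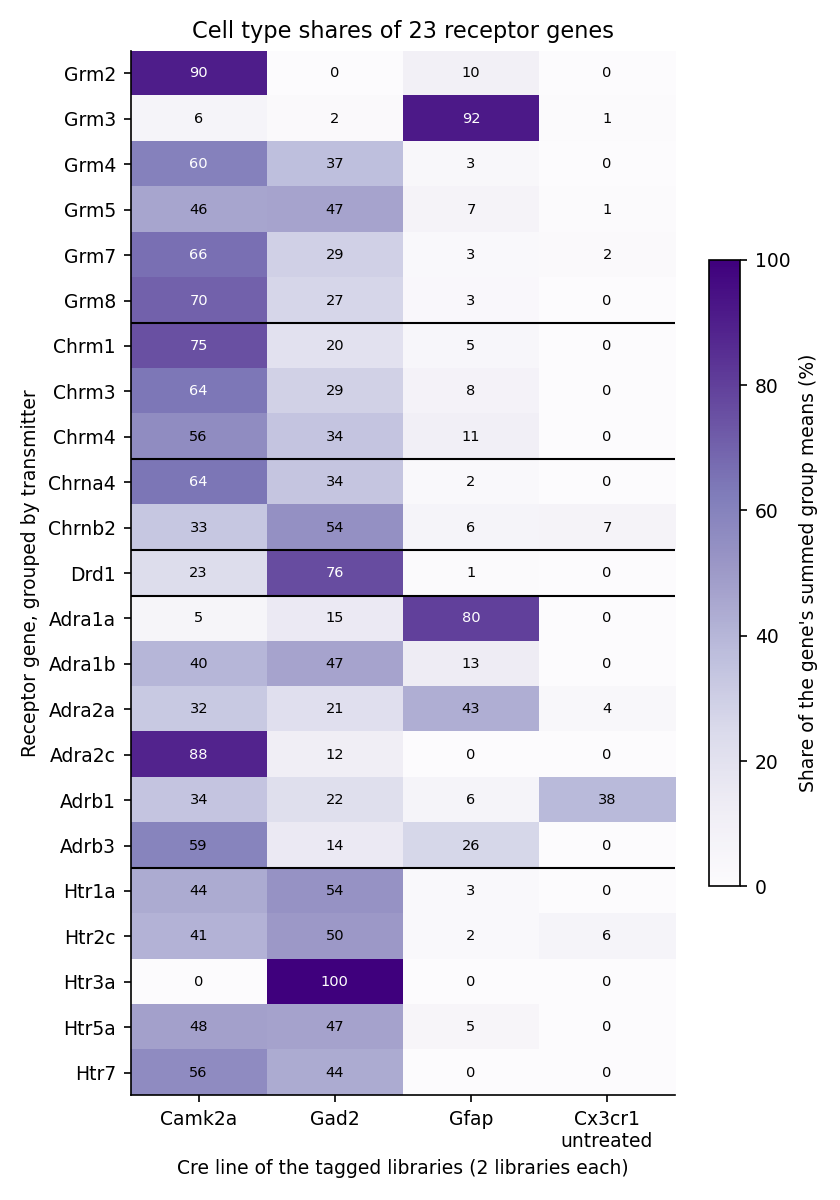
Share of each receptor gene's summed group means (percent, colour and number) in the Camk2a, Gad2, Gfap and untreated Cx3cr1 libraries, for 23 genes with at least 20 counts over the 8 libraries. Most rows are split between the neuronal lines, while Grm3, Htr3a and Grm2 each hold over 90% in a single column.

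Between the cortical neuron lines, Camk2a (excitatory projection neurons) was compared with Gad2 (GABAergic interneurons). Of the 57 receptor genes, 22 passed the filter on low counts. Camk2a was higher for 7, lower for 3, and 12 were not called at an adjusted p of at most 0.05. Among all 9421 genes tested, 11.6% were higher and 9.6% lower, 21.2% in all. The median log2 difference of the 22 was 0.45, against 0.03 for all genes. By coupling, 6 of the 10 tested Gi-coupled receptors were higher in Camk2a and none lower, with 4 not called. The 6 were Adra2c and the metabotropic glutamate receptors Grm2, Grm3, Grm4, Grm7 and Grm8. Of these, Adra2c and Grm2 passed the filter on low counts through Camk2a alone and so had to differ. The count of 6 largely repeats that of the metabotropic family below. Outside that family, Adra2a, Chrm4, Htr1a and Htr5a were the ones not called. Of the 6 tested Gq-coupled receptors, 1 was higher and 1 lower.

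The metabotropic glutamate receptors gave the most calls, 5 higher and 1 lower among 7 tested. Grm2, a presynaptic brake on glutamate release, had 36 and 27 counts in Camk2a (17.4 and 13.5 normalised CPM, that is, CPM of totals scaled by the trimmed mean of M-values), none in either Gad2 library, 1 and 3 in Gfap and none in Cx3cr1. Against the 3 counts over the Gad2 group that stand as its floor, Camk2a was at least 8.58-fold higher (adjusted p = 0.000381). The groups did not overlap. Grm2 passed the filter on low counts through Camk2a alone and so had to differ, and its p-value is descriptive only.
Grm3 had 49.3 and 38.0 normalised CPM in Camk2a against 15.4 and 12.8 in Gad2. Camk2a was higher by 1.65 on the log2 scale (SE 0.35, adjusted p = 0.00202), and it was 1.51 (adjusted p = 0.0826) without Gad2 replicate 2. The group III receptors Grm4, Grm7 and Grm8 are also presynaptic Gi-coupled receptors. Grm7 measured 124 and 160 normalised CPM in Camk2a and 55.4 and 70.0 in Gad2, a log2 difference of 1.16 (SE 0.25, adjusted p = 0.00213). Its groups did not overlap, and the adjusted p was 0.083 without Camk2a replicate 2 and 0.0538 without Gad2 replicate 1. Grm8 differed by 1.35 (SE 0.36, adjusted p = 0.0107) and missed the threshold without any 1 of the 4 neuronal libraries. Grm4, at 95.6 and 104 against 70.7 and 50.3 normalised CPM, differed by 0.75 (SE 0.25, adjusted p = 0.0405), with adjusted p of 0.0527 under RLE scaling and 0.158 with DESeq2. Its call did not survive without any 1 of the 6 cortical libraries.

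Grm5, a postsynaptic Gq-coupled group I receptor, was the receptor with the most counts in both neuronal lines, 1026 and 916 in Camk2a and 309 and 496 in Gad2. Its levels of 496 and 459 normalised CPM in Camk2a enclosed those of 475 and 489 in Gad2. The log2 difference of Grm5 was -0.02 (SE 0.23, adjusted p = 0.989).

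Muscarinic receptors respond to acetylcholine. Chrm1, the main Gq-coupled muscarinic receptor of forebrain pyramidal cells (chromosome 19, 8664005 to 8683606), measured 241 and 246 normalised CPM in Camk2a, 76.9 and 53.2 in Gad2, 20.2 and 9.20 in Gfap and 0 in both Cx3cr1 libraries. The order was Camk2a, Gad2 and Gfap, with no overlap between neighbouring groups. Cx3cr1 could not be placed against Gfap, since a count of 0 there allows up to 19.4 and 22.5 CPM. Camk2a exceeded Gad2 by 1.93 on the log2 scale (SE 0.27, adjusted p = 3.63e-05). Chrm4, coupled to Gi, differed by 0.75 (SE 0.31, adjusted p = 0.0966), and Chrm3, coupled to Gq, by 1.21 (SE 0.57, adjusted p = 0.151), with higher values in both Camk2a libraries than in either Gad2 library for each gene. The Chrm4 span overlaps that of Mdk in the gene table.

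Dopamine and serotonin receptors supplied the clearest Gad2 genes. Drd1, the Gs-coupled D1 receptor (chromosome 13, 54051183 to 54055658), measured 84.6 and 98.6 normalised CPM in Gad2, 29.9 and 25.03 in Camk2a, 1.44 and 0.614 in Gfap and 0 in Cx3cr1. Camk2a was lower than Gad2, with a log2 difference of -1.74 (SE 0.27, adjusted p = 9.3e-05). Striatal neuron markers summed to 339 and 229 CPM in Gad2 and 323 and 358 CPM in Camk2a, and their part in the Drd1 difference was not tested.
Htr3a, the subunit required for the serotonin-gated channel and a standard marker of a class of cortical interneurons (chromosome 9, 48899213 to 48911152), had 17 and 14 counts in Gad2 and none in the other 6 untreated libraries. Those counts equal 26.1 and 13.8 normalised CPM. Against the floor of 3 counts over the Camk2a group, Camk2a was at least 27.1-fold lower (edgeR adjusted p = 6.76e-05), while DESeq2 gave an adjusted p of 0.286. Htr3a passed the filter on low counts through Gad2 alone and so had to differ, and its p-values are descriptive only. Its partner subunit Htr3b had no count in any of the 15 PAPERCLIP libraries.
The other tested serotonin receptors were shared by the neuronal lines. Htr2c, coupled to Gq, differed by -0.30 (SE 0.27, adjusted p = 0.488), and Htr1a, an inhibitory Gi-coupled receptor, by -0.27 (SE 0.29, adjusted p = 0.574). Htr5a differed by 0.04 (SE 0.46, adjusted p = 0.978) and Htr7 by 0.23 (SE 0.54, adjusted p = 0.823). These errors leave room for differences in either direction.

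Among adrenergic receptors, Adra2c, a Gi-coupled receptor for noradrenaline, was the only call, at 40 and 44 counts in Camk2a, 1 and 4 in Gad2 and none in Gfap or Cx3cr1. The levels were 19.3 and 22.0 normalised CPM against 1.54 and 3.94. This was a log2 difference of 2.74 (SE 0.59, adjusted p = 0.00262), and 2.35 without Gad2 replicate 1. Adra2c passed the filter on low counts through Camk2a alone and so had to differ, and its p-value is descriptive only. Adrb1, a Gs-coupled receptor, stood at 35.3 and 30.0 normalised CPM against 24.6 and 16.8 (log2 difference 0.70, adjusted p = 0.241). Adra2a differed by 0.62 (adjusted p = 0.288) and Adra1b by -0.30 (adjusted p = 0.667). The single nicotinic subunit with enough counts, Chrnb2, the common beta subunit of brain nicotinic channels, differed by -0.73 (SE 0.35, adjusted p = 0.158), at 18.4 and 18.0 against 26.1 and 33.5 normalised CPM. Its span overlaps that of Adar. Chrna4, the usual partner of Chrnb2, had 18 and 21 counts in Camk2a, 4 and 4 in Gad2 and at most 1 elsewhere among the 8 libraries, too few to test.

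**Figure D2:**
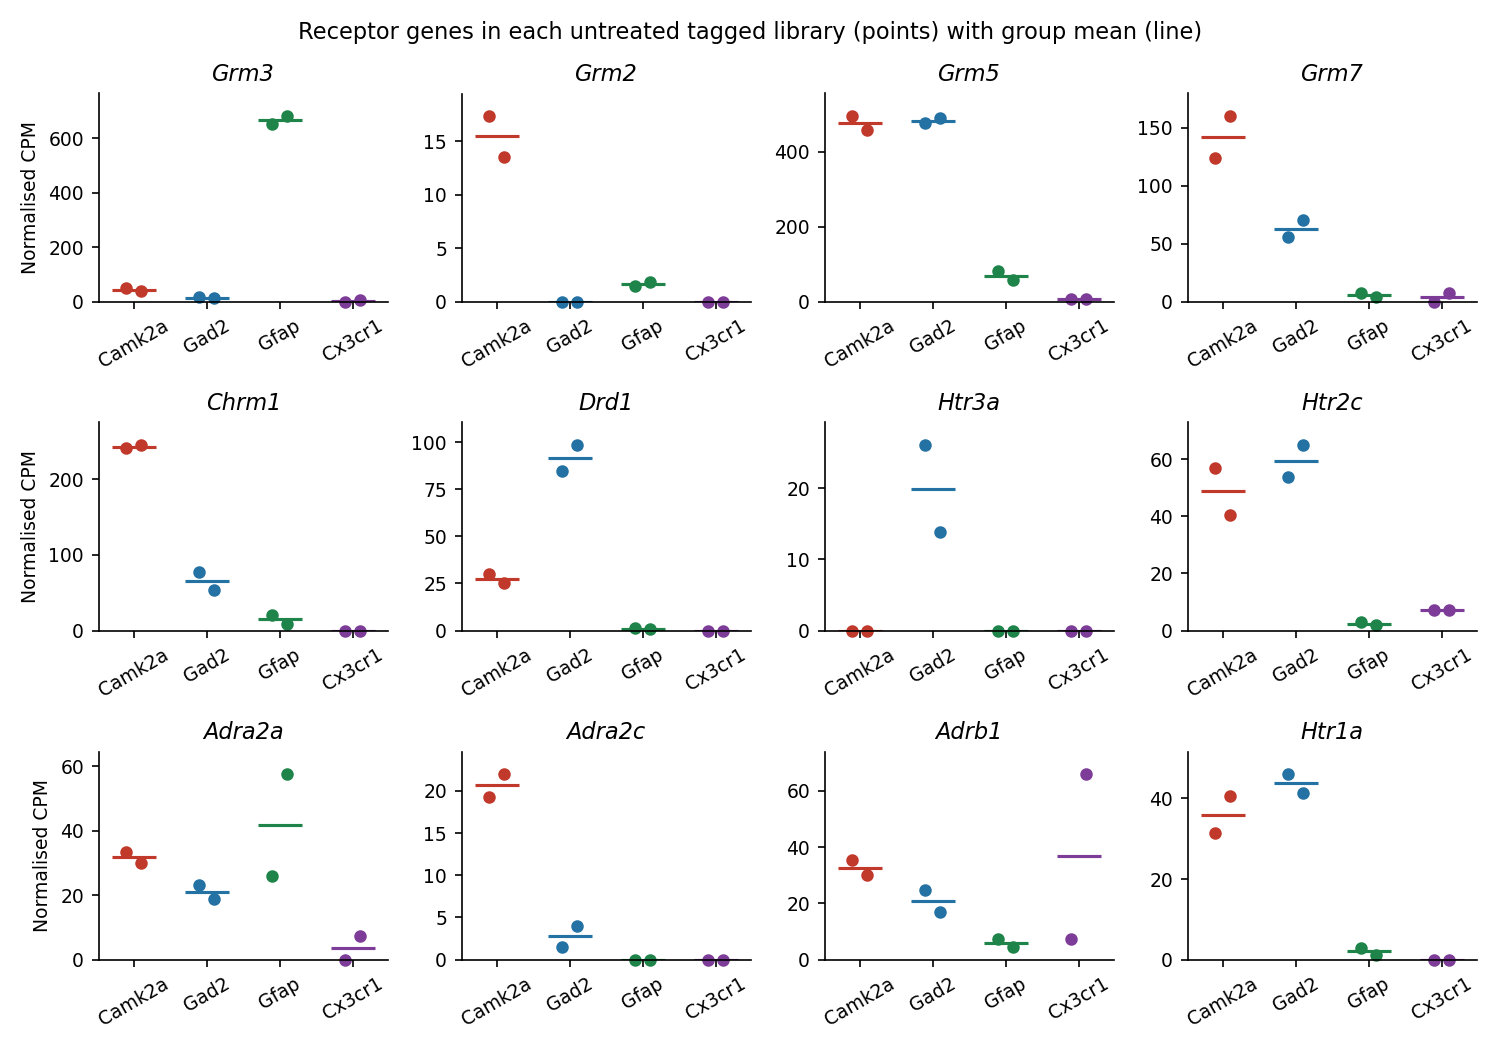
Normalised CPM (linear axis from 0, scaled per panel) of 12 receptor genes in each untreated PAPERCLIP library, with points for libraries and a line for the group mean of 2. Grm3 is high in both Gfap libraries (651 and 682), Chrm1 in both Camk2a libraries (241 and 246), and Drd1 and Htr3a in both Gad2 libraries.

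The proteins that make, move and transduce these signals were taken from lists of 71 genes. Of the 43 tested between Camk2a and Gad2, 6 were higher, 5 lower and 32 not called, beside 11.6% higher and 9.6% lower among all genes. Rgs4, which shortens Gi and Gq signals, averaged 737 ± 20.8 normalised CPM (SD, n = 2) in Camk2a and 95.1 ± 25.8 in Gad2, a log2 difference of 2.93 (SE 0.28, adjusted p = 2.41e-07). Adcy9, an adenylyl cyclase that makes cyclic AMP, was higher in Camk2a by 1.36 (SE 0.23, adjusted p = 0.000244). Th, the rate-limiting enzyme of catecholamine synthesis, averaged 45.7 ± 15.8 normalised CPM in Gad2 and 0.725 ± 1.02 in Camk2a. Th passed the filter on low counts through Gad2 alone and so had to differ. Lypd6, a membrane-anchored modulator of nicotinic channels, averaged 30.0 ± 7.58 in Gad2 and 2.46 ± 0.0622 in Camk2a (log2 difference -3.51, SE 0.46, adjusted p = 1.32e-05).

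Against the mean of the 2 neuronal lines, the Gfap libraries were higher for 2 of the 22 tested receptor genes, lower for 17 and not called for 3. Among all 9421 genes, 31.3% were higher and 29.3% lower, 60.5% in all. The median log2 difference was -2.87 over the 20 receptor genes for which it could be set, with genes at 0 placed at their bound. It was 0.00 for the fitted differences of all genes, where no bounds were used. Grm3 was the main exception. It had 451 and 1111 counts in Gfap, 651 and 682 normalised CPM, against 12.8 to 49.3 in the 4 neuronal libraries and 0 and 7.34 in Cx3cr1. Gfap thus exceeded neurons by 4.75 on the log2 scale (SE 0.22, adjusted p = 1.79e-12). By group mean the order was Gfap (666 ± 21.9, SD, n = 2), Camk2a (43.7 ± 7.93), Gad2 (14.1 ± 1.81) and Cx3cr1 (3.67 ± 5.19), and no neighbours overlapped. The Cx3cr1 mean rested on counts of 0 and 1, in libraries where 3 counts equal 19.4 and 22.5 CPM. Its place below Gad2 is therefore not settled. With Grm3 included, the summed metabotropic glutamate family reached 749 and 752 normalised CPM in Gfap, beside 848 and 848 in Camk2a and 687 and 716 in Gad2.

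The other tested metabotropic receptors were lower in Gfap, except Grm2, which was not called. For Grm2 the difference could not be set, since the neuronal mean included Gad2 at 0. Grm2 measured 1.44 and 1.84 normalised CPM in Gfap against 17.4 and 13.5 in Camk2a. Grm5, at 80.8 and 56.4 normalised CPM, was lower than in neurons, with a log2 difference of -2.84 (SE 0.25, adjusted p = 9.52e-09). Grm7, at 7.21 and 4.29 normalised CPM, was lower, with a log2 difference of -4.15 (SE 0.36, adjusted p = 9e-09). Grm4, at 5.77 and 4.91, was lower, with a log2 difference of -3.86 (SE 0.35, adjusted p = 3.03e-08). Grm8 was also lower, with a log2 difference of -4.13. Gfap replicate 1, which had the higher level of Grm5, Grm7, Grm4 and Chrm1, also had the higher sum of general neuron markers. The part of neuronal RNA in these Gfap levels was not tested.

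All 3 tested muscarinic receptors were lower, with log2 differences of -3.25 for Chrm1 (SE 0.32, adjusted p = 9.1e-08), -2.41 for Chrm3 and -2.11 for Chrm4. Drd1 was lower, with a log2 difference of -5.68 (SE 0.52, adjusted p = 2.94e-08). Of the 5 tested serotonin receptors 4 were lower. Htr2c, at 2.88 and 1.84 normalised CPM in Gfap against 57.0 and 40.6 in Camk2a and 53.8 and 65.1 in Gad2, was lower, with a log2 difference of -4.57 (SE 0.44, adjusted p = 3.73e-08). The log2 difference was -4.42 for Htr1a and -2.71 for Htr5a, and Htr7, with no count in Gfap, was at least 7.60-fold lower. For Htr3a the difference could not be set, since Gfap and Camk2a were both at 0. Chrnb2 was lower, with a log2 difference of -2.90.

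Adrenergic receptors were split. Adra2a, a Gi-coupled receptor for noradrenaline, was called higher in Gfap by 0.82 (SE 0.30, adjusted p = 0.0245), but its Gfap libraries lay far apart, at 26.0 and 57.7 normalised CPM (18 and 94 counts), and the first fell within the neuronal range of 18.7 to 33.3. Without Gfap replicate 2 the log2 difference was 0.04, and the adjusted p was 0.102 when scaled by library totals alone and 0.166 with DESeq2. Adra1a, a Gq-coupled receptor with too few counts to test, showed the same unevenness, with 5 and 24 counts in Gfap, 2 and 1 in Camk2a, 2 and 1 in Gad2 and none in Cx3cr1. Gfap replicate 2, where both genes were higher, also had the higher oligodendrocyte, precursor and mural marker sums given above. The part of those cells in either result was not tested. Adrb1 was lower in Gfap, with a log2 difference of -2.27, Adra1b likewise at -1.63, and Adra2c, with no count, was at least 5.83-fold lower.

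**Figure D3:**
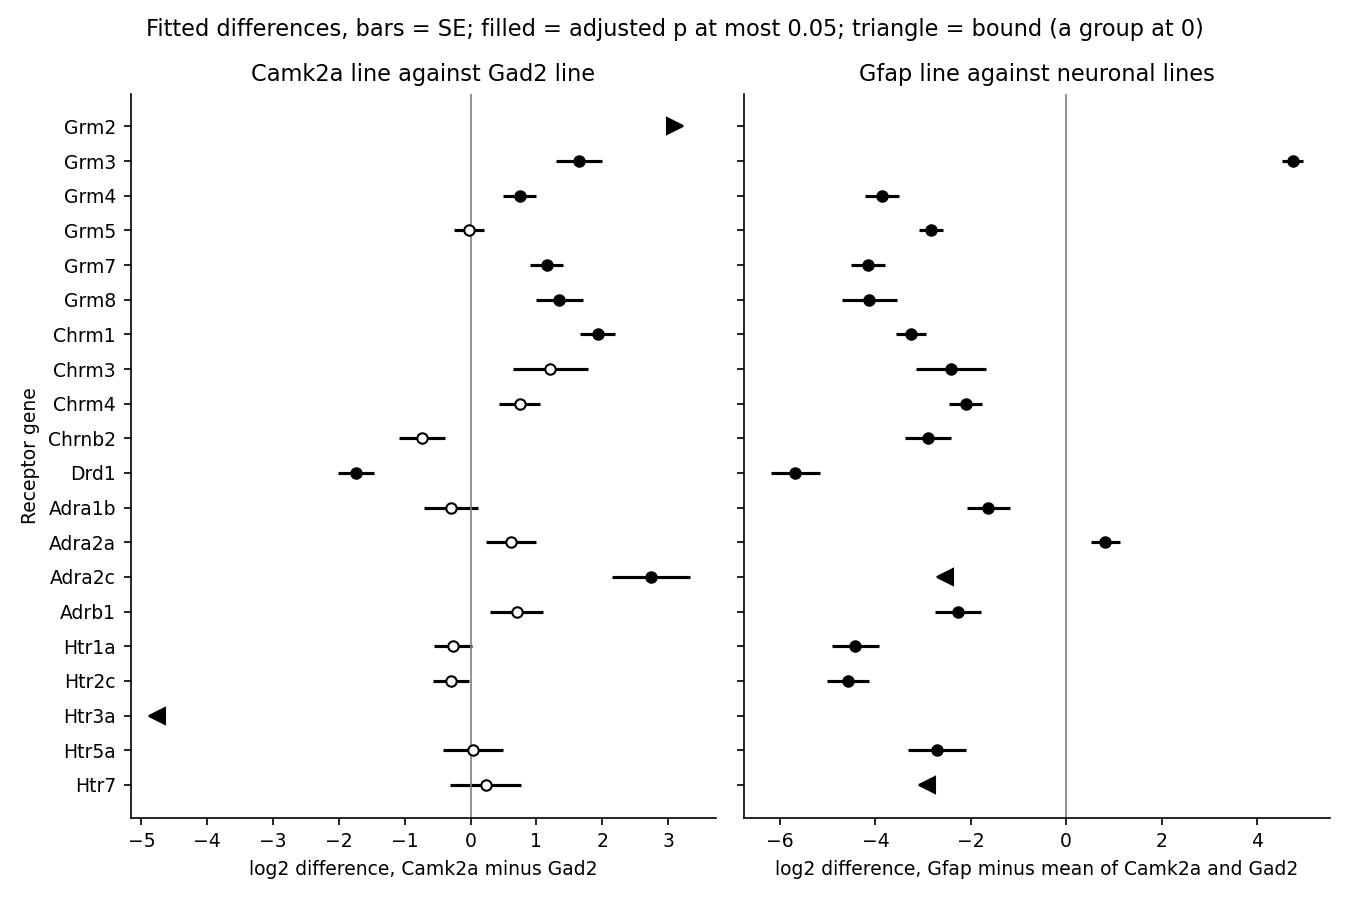
Fitted log2 differences of the tested receptor genes between Camk2a and Gad2 (left) and between Gfap and the mean of both neuronal lines (right), with SE as bars, filled points at an adjusted p of at most 0.05 and triangles for bounds where a group had no count. On the right, Grm3 at 4.75 and Adra2a at 0.82 lie above 0 and the other called genes lie below it.

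Of the 43 tested genes of transmitter handling and transduction, 10 were higher in Gfap, 24 lower and 9 not called. Among all genes, 31.3% were higher and 29.3% lower. Maob, the monoamine oxidase known from astrocytes, averaged 194 ± 39.7 normalised CPM in Gfap (SD, n = 2), 3.95 ± 1.49 in Camk2a and 3.29 ± 1.87 in Gad2, a log2 difference of 5.78 (SE 0.29, adjusted p = 1.03e-11). Maob passed the filter on low counts through Gfap alone and so had to differ, and its p-value is descriptive only. Plcb3, a phospholipase C downstream of Gq, averaged 170 ± 28.4 in Gfap and 1.97 ± 0.0495 in Camk2a (log2 difference 6.04, SE 0.35, adjusted p = 3.12e-11). Adcy1, a calcium-activated adenylyl cyclase, was lower in Gfap, with a log2 difference of -3.52 (SE 0.30, adjusted p = 9.09e-09). Gnal, a Gs-like alpha subunit that serves Drd1 in striatum, was lower, with a log2 difference of -4.03 (SE 0.41, adjusted p = 8.44e-08).

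In the untreated Cx3cr1 libraries, 45 of the 57 receptor genes had no count, 10 had 1 to 3 in sum and 2 had more. A count of 0 allows up to 19.4 CPM in replicate 1 and 22.5 CPM in replicate 2, so low receptor levels were not detectable at this depth. Against the mean of the 3 cortical lines, 1 of the 22 tested receptor genes was higher, 10 were lower and 11 were not called. Among all 9421 genes, 21.8% were higher and 28% lower, 49.8% in all. The Cx3cr1 line was sampled from whole brain and the others from cortex, so region and cell type cannot be told apart. Over the 15 receptor genes for which a difference or bound could be given, the median was -1.35, against -0.48 for all genes. The all-gene value is a median of fitted differences without bounds, so the measures are unlike.

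Adrb1, a Gs-coupled receptor for noradrenaline, had 1 and 9 counts in Cx3cr1, 7.27 and 66.1 normalised CPM, against 4.29 to 35.3 normalised CPM in the 6 cortical libraries. Replicate 1 lay within the cortical range and replicate 2 above it. The log2 difference was 1.27 (SE 0.64, adjusted p = 0.108), and it was 1.96 (adjusted p = 0.0132) without replicate 1 and -1.11 without replicate 2. Border macrophage and monocyte markers summed to 749 CPM in replicate 1 and 2151 CPM in replicate 2. Their part in the spread of Adrb1 was not tested.

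Metabotropic glutamate and muscarinic receptors made up 7 of the 10 receptors lower in Cx3cr1. Grm5, with 1 count in each library, was lower, with a log2 difference of -5.07 (SE 0.55, adjusted p = 3.23e-07), and so was Grm3, with 0 and 1 counts, at -4.30 (SE 0.80, adjusted p = 0.000187). Chrm1 had no count and was at least 5.62-fold lower (adjusted p = 0.000413), Grm4 at least 2.90-fold (adjusted p = 0.00242) and Chrm4 at least 2.53-fold (adjusted p = 0.00632). Grm7 and Adra2a, with 0 and 1 counts each, were lower, with log2 differences of -3.27 and -3.04. For Grm7 the 7.34 normalised CPM of Cx3cr1 replicate 2 lay above both Gfap libraries, so the groups overlapped. Without Cx3cr1 replicate 1 the adjusted p was 0.0658 for Grm7 and 0.152 for Adra2a. Htr1a and Drd1 reached bounds of 1.35-fold and 1.25-fold. The calls of Htr1a and Drd1 were lost when either Cx3cr1 library was left out. For Htr3a, Htr7, Grm2 and Adra2c, groups on both sides were at 0 and no difference could be set.

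Of the 43 tested signalling genes, 11 were higher in Cx3cr1, 19 lower and 13 not called, beside 21.8% higher and 28% lower among all genes. Gnai2, the Gi alpha subunit of immune cells, averaged 3662 ± 165 normalised CPM (SD, n = 2) in Cx3cr1, 1646 ± 68.9 in Gfap and 233 ± 3.96 in Gad2 (log2 difference 3.09, SE 0.20, adjusted p = 2.69e-10). Rgs2, which limits Gq signals, averaged 859 ± 187 in Cx3cr1 and 129 ± 17.6 in Camk2a (log2 difference 3.54, SE 0.24, adjusted p = 5.67e-10). Adcy2, an adenylyl cyclase, had no count in Cx3cr1 and averaged 516 ± 23.3 in Gfap, with an adjusted p of 3.69e-08. Plcb1, a phospholipase C of neurons, was lower, with a log2 difference of -3.75 (SE 0.39, adjusted p = 1.73e-07).

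The response of microglia to LPS was measured in tagged Cx3cr1 libraries and in isolated cells. In PAPERCLIP, the comparison called 3.53% of 5692 genes (2.74% higher, 0.791% lower), 201 in all, or 423 with the replicate number as a block. Few receptor genes had enough counts to describe. Adrb1 counts were 5, 12 and 5 in the PBS group and 12, 25 and 10 in the LPS group, or 18.8, 48.4 and 15.5 against 11.8, 39.5 and 12.2 normalised CPM, and the groups overlapped. Other receptor genes with at least 10 counts over the 6 libraries were Grm5, Htr2c, Adra2a and Drd1, none of which could be tested. Grm5 counts were 1, 2 and 16 in the PBS group and 12, 6 and 4 in the LPS group. Htr2c had 2, 0 and 10 after PBS and 4 in each LPS library. Adra2a had 3, 0 and 5 against 2, 3 and 0, and Drd1 0, 0 and 2 against 5, 2 and 1. PBS replicate 3 held most of the PBS counts of Grm5 and Htr2c, and its neuron markers summed to 2756 CPM against 370 to 547 CPM in the other 5. Its liver markers, at 1898 CPM, were also high. The part of such RNA in these counts was not tested. Another 19 receptor genes had 1 to 9 counts and 32 had none.

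In isolated microglia, 15.9% of the 10267 genes tested were higher and 10.4% lower, 26.4% in all, and 3 receptor genes were tested, of which 2 were lower and 1 was not called. Scaled by library totals alone, the all-gene median shifted from -0.02 to -0.13, and the split from 1634 higher and 1072 lower to 1282 and 1641. Microglial markers were lower after LPS, 25662 to 30921 CPM against 37416 to 37577 CPM. Adrb1 was the receptor gene that was not called. Its counts were 45, 28 and 64 in the PBS group and 25, 32 and 21 in the LPS group, equal to 22.2, 21.7 and 34.8 against 17.4, 15.6 and 17.6 normalised CPM. The groups did not overlap, but the log2 difference of -0.66 (SE 0.24) missed the threshold with an adjusted p of 0.06. The adjusted p was 0.0333 when scaled by library totals alone, 0.0382 in thinned libraries and 0.231 with DESeq2, and the difference was -0.40 without PBS replicate 3.

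Htr2c was called lower in isolated microglia. Its counts were 244, 124 and 58 in the PBS group and 35, 55 and 35 in the LPS group, or 121, 96.3 and 31.5 against 24.3, 26.8 and 29.3 normalised CPM. PBS replicates 1 and 2 stood well above the rest, and PBS replicate 3 lay close to the LPS libraries. The log2 difference was -1.63 (SE 0.39, adjusted p = 0.00896), and -1.21 (adjusted p = 0.0524) without PBS replicate 1. Htr2c is a textbook receptor of choroid plexus, the epithelium that makes cerebrospinal fluid. A list of 9 choroid plexus genes, chosen after the data were seen (Ttr, which is also on the hepatocyte list, Kl, Folr1, Clic6, Kcne2, Enpp2, Otx2, Aqp1 and Slc4a5), was therefore read beside it. All 9 genes had counts in all 6 libraries. The list summed to 13028, 12482 and 3156 CPM after PBS and 2454, 3143 and 2923 CPM after LPS, with PBS replicates 1 and 2 highest. The log2 differences of the 9 lay between -1.32 and -1.98, and 3 of them missed the threshold (Aqp1, Slc4a5 and Otx2, with adjusted p of 0.0909, 0.0634 and 0.0562). The part of choroid plexus RNA in the Htr2c difference was not tested. In tagged Cx3cr1 libraries, where the list summed to 20.04 to 335 CPM, Htr2c had at most 10 counts.

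**Figure D4:**
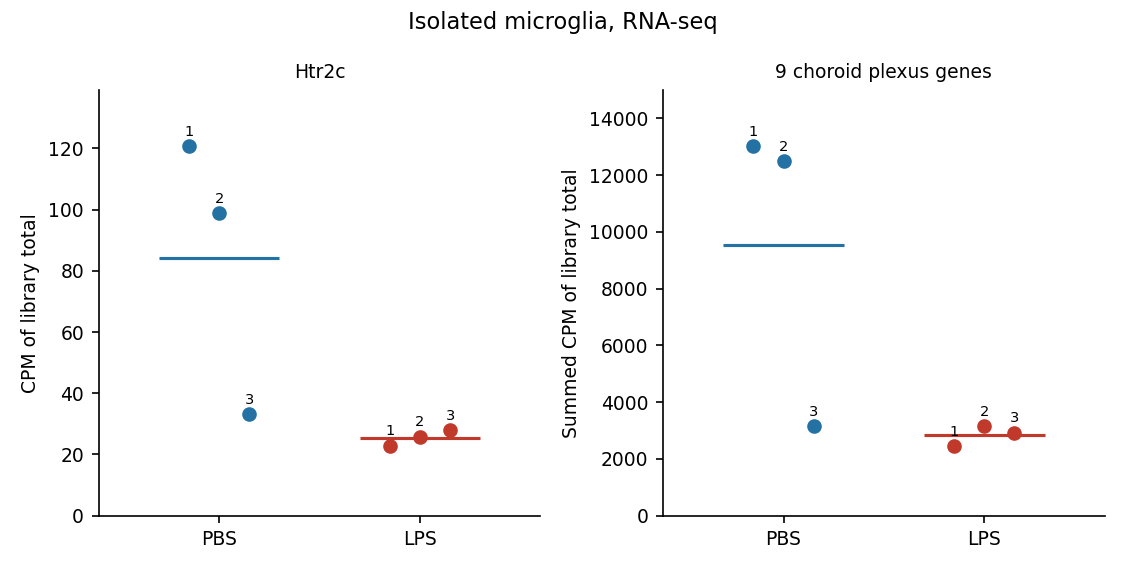
Htr2c (left, CPM of the library total) and 9 choroid plexus genes (right, summed CPM) in isolated microglia after PBS and LPS, with points numbered by replicate and lines at group means. PBS replicates 1 and 2 are the highest points in both panels.

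A further 6 receptor genes had at least 10 counts over the isolated microglia libraries but too few to test. Adra2a had 6, 2 and 6 counts after PBS and 1 in each LPS library. Chrnb1, a nicotinic beta subunit best known from muscle, had 6, 7 and 7 against 3, 6 and 3, and Chrnb2 had 8, 4 and 3 against 6, 3 and 2. Chrna4 had 2, 5 and 0 against 1, 0 and 2. Grm3 had 3, 1 and 10 against 3, 1 and 2, and Grm8 had 1, 6 and 0 against 2, 2 and 0. No nicotinic or metabotropic gene in these cells exceeded 10 counts in a library. Another 16 receptor genes had 1 to 9 counts over the 6 libraries and 32 had none, Htr3a and Chrm1 among those below 10.

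Of the transmitter and transduction genes, 1 of 22 tested in PAPERCLIP was called after LPS, beside 3.53% of all genes. The called gene was Adcy8, a calcium-activated adenylyl cyclase, with a mean of 37.4 ± 11.6 normalised CPM (SD, n = 3) in the PBS group and 5.48 ± 4.84 in the LPS group (log2 difference -2.89, SE 0.55, adjusted p = 0.00949). It passed the filter on low counts through the PBS group alone and so had to differ, and its p-value is descriptive only. General neuron markers summed to 547, 458 and 2756 CPM after PBS and 381, 370 and 522 CPM after LPS. In the cell type fit Adcy8 averaged 188 ± 18.2 in Gad2 and 104 ± 5.37 in Camk2a. The part of neuronal RNA in its LPS difference was not tested. In isolated microglia 5 of 38 were higher, 10 lower and 23 not called, beside 15.9% higher and 10.4% lower among all genes. Adcy7, the main cyclase of blood cells and downstream of Gs receptors such as Adrb1, rose from 252 ± 28.1 to 482 ± 52.9 normalised CPM (log2 difference 0.94, SE 0.11, adjusted p = 7.07e-05). Grk3, a kinase that desensitises beta receptors, rose from 72.2 ± 9.38 to 135 ± 9.73 (log2 difference 0.92, SE 0.12, adjusted p = 0.000164). Rgs2 fell from 693 ± 32.4 to 419 ± 45.3 (log2 difference -0.73, SE 0.10, adjusted p = 0.000204), and Rgs4 from 18.6 ± 6.93 to 3.83 ± 1.25 (log2 difference -2.35, SE 0.39, adjusted p = 0.000894). Mural cell markers in these libraries summed to 271, 246 and 433 CPM after PBS and 97.1, 53.0 and 158 CPM after LPS. The part of such cells in the Rgs4 difference was not tested. Rgs4 passed the filter on low counts through the PBS group alone and so had to differ, and its p-value is descriptive only. In the tagged Cx3cr1 libraries, Rgs2 averaged 691 ± 89.8 normalised CPM after PBS and 649 ± 5.75 after LPS. Adcy7 averaged 144.5 ± 10.3 and 164 ± 30.1 there, and Rgs4 17.7 ± 17.4 and 9.36 ± 2.63.

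In all, 12 receptor genes had no count in any of the 15 PAPERCLIP libraries: Chrm2, Chrm5, Chrna6, Chrna9, Chrnd, Chrng, Drd2, Drd3, Grm6, Htr1b, Htr2a and Htr3b. They include receptors described in cortex, such as Chrm2, Htr1b and Htr2a. The Ptbp2-KO cortex, sequenced to 19446610 to 27415288 counts, had more than 3 counts in every library for 43 of the 57 receptor genes. Chrm2 had 437, 386 and 338 counts there and Htr2a 212, 228 and 138. Htr1b had 175, 185 and 92, Drd2 111, 107 and 54, Chrm5 29, 39 and 13, and Chrng 10, 15 and 8. These genes were therefore annotated and countable in RNA-seq of embryonic knockout cortex, but age, genotype, assay and depth all differ from the PAPERCLIP libraries and their parts cannot be told apart. Of the genes that stood out by cell type, Grm3 had 3698, 3128 and 2528 counts, Chrm1 630, 645 and 306, and Htr3a 127, 97 and 65.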

How the data were processed

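PAPERCLIP was measured in 15 libraries and RNA-seq in 9. The files the authors deposited hold raw whole-number counts by gene, 1 file to a library. Build mm10 was used, with Novoalign and cutadapt for PAPERCLIP and STAR for RNA-seq, per the submitters' processing notes. The sources used here do not give versions, duplicate removal, gene assignment or strand use, so counts of the 25 receptor genes whose span overlaps another gene (Chrna3 and Chrna5 overlap each other) are uncertain. Groups were taken from the titles. Labels call only the knockout libraries biological replicates, so the spread behind each p-value is that of these libraries and may be technical. Chi-square per degree of freedom between replicates was 2.1 to 7.24, above sampling noise for every pair.

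The receptor genes and all lists were chosen with earlier results of these data known. The test was edgeR's quasi-likelihood F test (edgeR 4.0.16 under R 4.3.3). Low counts were removed by filterByExpr, totals scaled by TMM, and p adjusted by Benjamini-Hochberg over the whole table, with calls at 0.05. The 3 cell type comparisons share a fit of the 8 untreated libraries, and thus share libraries, and each LPS comparison used its own 6. SE was taken from the F statistic. Normalised CPM use TMM-scaled totals within each fit, so levels are not compared across fits. The filter passed 22 receptor genes in the cell type fit, 1 in PAPERCLIP LPS and 3 in RNA-seq LPS. A gene that passed through its high group alone had to differ. Counts of calls, and the p-value of such a gene, therefore describe and support nothing more. Folds against a group at 0 use 3 counts over the group, and such bounds cover counting error only. The scripts were tested on simulated data with 200 changed genes.

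Named in full are Htr3a, Grm3, Chrm1, the 5 receptor genes of smallest p in each direction of a cell type comparison, those called or with at least 10 counts in an LPS comparison, and the 2 pathway genes of smallest p in each direction.

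To check pairing, each library's deviations from its group mean were correlated, using genes of at least 20 CPM. Same-numbered libraries correlated at 0.13, 0.234 and 0.183 in PAPERCLIP LPS against PBS and at 0.111, 0.101 and 0.19 in RNA-seq, so the numbers were taken to pair those libraries, from the data alone. In RNA-seq, PBS replicate 1 and LPS replicate 2, which differ in number, also correlated at 0.101. Unless a block is named, the LPS values given are from fits that do not use this pairing. Alternatives were RLE and total-count scaling, a filter at 5 CPM in 2 libraries or none at all, DESeq2 1.42.0, a replicate block, each library left out, both replicates numbered 3 left out and thinning of every library to the smallest total, which was added after seeing the data. Counts of receptor genes cover all 57, of which 2 are not reported here by gene.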

Additional observations from a re-analysis of the deposited data

Results flagged for a closer look

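The liver PAPERCLIP library, which enters no comparison, held 7 counts of Adra1b, the alpha-1B adrenergic receptor known from hepatocytes, in 115734 counts (60.5 CPM, exact 95% interval 24.3 to 125 CPM, counting error only). It was marked because a count above 3 appeared outside the comparisons. Adrb3 had 2 counts there, and Grm3 and Grm5 had 1 each. The knockout cortex, also outside the comparisons and without a control, held more than 3 counts in every library for 43 receptor genes. Of these, 6 had no count in any PAPERCLIP library (Chrm2, Chrm5, Chrng, Drd2, Htr1b and Htr2a).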

How the results depend on the processing

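Over 43 called differences of single receptor genes, 615 alternative values were computed: 565 kept direction and threshold, 50 missed the threshold and none changed sign. In 27 of the 43 the call held under every alternative with a value. Receptor genes called between Camk2a and Gad2 numbered 10, with a range of 5 to 10 over the libraries left out in turn. The number was 19 in Gfap against neurons (16 to 21), 11 in Cx3cr1 against cortical lines (7 to 12), 1 in PAPERCLIP LPS (1 in each) and 2 in RNA-seq LPS (1 to 2). The low values came without Gad2 replicate 1, Cx3cr1 replicate 1 and microglia PBS replicate 1. With all libraries thinned to 133456 counts, 7 receptor genes were tested and 2, 6 and 5 were called in the 3 cell type comparisons. Fewer genes pass the filter at lower counts, so fewer calls could follow. The part of depth in the calls from the full libraries was not tested. The Grm5 difference between Camk2a and Gad2, -0.02, was 0.03 with no filter and ranged from -0.06 to 0.04 over the libraries left out (0.04 without Camk2a replicate 2 and 0.02 without Gad2 replicate 2). Adrb1 in Cx3cr1, 1.27, ranged from -1.11 without Cx3cr1 replicate 2 to 1.96 without replicate 1. With the replicate block, counts of receptor genes called were 10, 19, 11, 1 and 2, and no receptor call changed in the paired LPS comparisons. In the untreated libraries same-numbered libraries correlated at 0.007 to 0.066, so they share only a number. DESeq2 called 1781 of all genes in RNA-seq LPS against 2706 by edgeR. Total-count scaling moved the all-gene median in Gfap against neurons from 0.00 to -0.21. The cause of these shifts was not tested.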
